A study of Mus musculus with 12 samples.

Results

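The 8 macrophage identity markers described here are Adgre1, Aif1, Mpeg1, Tyrobp, Laptm5, Ptprc, Lgals3 and Sirpa, genes whose RNA is commonly read as a sign that a sample holds macrophages. They were chosen by symbol from the gene table of 53465 genes, and all 8 were present in it and passed the filter on low values. The study measured total RNA of peritoneal macrophages by RNA sequencing in 12 libraries, to ask how BHLHE40, a basic helix-loop-helix repressor, affects what macrophages do under inflammatory stimulation. All mice were C57BL/6 at postnatal week 10. Group 1 was labelled Lyz2Cre-BHLHE40-Fl and treated with LPS, the bacterial lipopolysaccharide. Group 2 was Lyz2Cre-BHLHE40-Fl with the control treatment, group 3 was Lyz2Cre with LPS and group 4 was Lyz2Cre with the control treatment, with 3 libraries in each. Both genotypes carry Lyz2Cre, a Cre recombinase under control of the lysozyme 2 gene, expressed by macrophages and also by other myeloid cells such as neutrophils. "Fl" denotes a loxP-flanked allele of BHLHE40, which Lyz2Cre can recombine. No label used here states the dose or duration of LPS or what the control treatment was. The libraries labelled Lyz2Cre-BHLHE40-Fl are called BHLHE40-Fl below.

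Macrophages are recognised by a set of proteins, some of them shared with other blood cells. Some are receptors at the cell surface (the adhesion receptor F4/80 from Adgre1, the inhibitory receptor SIRPα from Sirpa). Some set the threshold of signalling (the phosphatase CD45 from Ptprc, the adaptor DAP12 from Tyrobp). Others act inside the cell (the actin-bundling protein IBA1 from Aif1, the lysosomal protein from Laptm5, the pore-former perforin-2 from Mpeg1, the lectin galectin-3 from Lgals3). In the mouse peritoneum the large resident macrophages are known for very high F4/80, and the small, monocyte-derived macrophages for low F4/80 and high MHC class II. LPS acts through TLR4 and changes the RNA of many macrophage genes within hours.

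Promoter sequence was at hand for 5 of the 8 genes, in RefSeq on GRCm38.p6, and was searched because these genes differed widely in their response. Short motifs were looked for on both strands within 250 bases before the RefSeq start: CACGTG, the E-box that BHLHE40 is known to bind; GAGGAA, the core of sites of the macrophage factor PU.1; GAAA and a second GAAA spaced by 2 bases of any kind, the core of interferon-stimulated response elements (ISRE); and TGANTCA, a site of AP-1. RefSeq and GENCODE place some starts differently, and the RefSeq starts of Aif1, Laptm5, Lgals3 and Ptprc lie inside the GENCODE gene, so that those windows reach into it. The E-box was found in 0 of the 5 genes, against 6.02% of 32851 promoters, and TGANTCA in 0 of 5, against 6.75%. GAGGAA was found in 3 of the 6 promoters of the 5 genes, those of Aif1 and Laptm5 and 1 of the 2 of Ptprc, against 23.3% of promoters, and the ISRE core in Aif1 alone, against 2.98%. The windows of 30 bases that hold GAGGAA or its reverse complement TTCCTC are shown with the match in capitals, each 5′ to 3′ on the strand of the gene.
Aif1, chr17:35176053-35176082, minus strand, match at position -7 from the RefSeq start: tagccgtggtgataggcacccagTTCCTCc
Laptm5, chr4:130913266-130913295, plus strand, match at position -38: gcagcctgtggcTTCCTCttttttgttctg
Ptprc, chr1:138175446-138175475, minus strand, match at position -158: tgttttcctttaGAGGAAaattgagacgaa
The 3 matches lie within the GENCODE genes. The longer windows of Aif1 and Mpeg1, which lie before both starts, are given because these 2 genes lay far apart in level and in their difference between genotypes. Capitals in the Aif1 window mark the ISRE core, at position -157 from the start, and the Mpeg1 window held none of the 4 motifs.
Aif1, chr17:35176069-35176302, minus strand: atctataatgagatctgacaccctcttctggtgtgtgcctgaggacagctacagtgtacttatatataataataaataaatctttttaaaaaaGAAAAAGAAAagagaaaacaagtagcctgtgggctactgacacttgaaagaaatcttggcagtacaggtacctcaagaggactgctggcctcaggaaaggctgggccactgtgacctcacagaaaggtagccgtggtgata
Mpeg1, chr19:12460520-12460769, plus strand: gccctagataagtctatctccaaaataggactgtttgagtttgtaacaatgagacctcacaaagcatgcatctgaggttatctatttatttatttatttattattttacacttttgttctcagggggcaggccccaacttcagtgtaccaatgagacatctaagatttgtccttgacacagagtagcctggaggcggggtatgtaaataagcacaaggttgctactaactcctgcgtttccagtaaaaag
A match is a description of the letters and not evidence that a factor binds.

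The genes lie on 7 chromosomes in the mm10 build (GENCODE M21 annotation), so that 1 pair, Adgre1 (chr17:57358691-57483527, plus strand) and Aif1 (chr17:35170991-35176068, minus strand), shares a chromosome, far apart on it. Ptprc lies at chr1:138062861-138175708 on the minus strand, Sirpa at chr2:129592835-129632228, Laptm5 at chr4:130913125-130936141, Tyrobp at chr7:30413760-30417585, Lgals3 at chr14:47367751-47386160 and Mpeg1 at chr19:12460779-12465283, these 5 on the plus strand. The deposited table gives 1 value per gene and library, and which exons or transcripts were counted is not recorded.

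The libraries held between 20489417 and 29354869 reads in genes, recovered from the deposited values as described under the processing, and mitochondrial genes took 0.486% to 1.92% of them. With LPS that share was 0.756%, 1.92% and 1.89% in BHLHE40-Fl and 0.600%, 0.486% and 0.599% in Lyz2Cre, without overlap; in controls it was 1.63%, 1.20% and 1.25% in BHLHE40-Fl and 0.986%, 1.02% and 1.37% in Lyz2Cre. Its part in the genotype differences was not tested. The BHLHE40-Fl LPS libraries differed most among replicates, by a chi-square per degree of freedom of 33.5 to 72.2, against 7.35 to 36.4 in the other groups. In all 12 replicate pairs the libraries differed by more than sampling noise, so each library counted as 1 sample. The labels do not say whether replicates came from separate mice, so the p-values reflect the scatter of these libraries alone, which may be technical. RNA of the targeted gene did not separate the genotypes in the direction of the label. Bhlhe40 averaged 2232 in BHLHE40-Fl with LPS, 7893 in BHLHE40-Fl controls, 2467 in Lyz2Cre with LPS and 4976 in Lyz2Cre controls. It was thus higher in BHLHE40-Fl than in Lyz2Cre controls (log2 difference 0.67, limma adjusted p = 6.32e-06), and with LPS the groups did not differ past the threshold (log2 difference -0.15, limma adjusted p = 0.201). With 1 value per gene, reads of a deleted stretch cannot be separated from the rest, and every genotype direction below rests on the labels. In these bulk libraries, fewer cells of a type and less RNA per cell cannot be told apart.

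Levels between genes were compared per length, as reads per kilobase of the longest coding transcript, scaled to the depth of the library (RPKM). In BHLHE40-Fl with LPS, Lgals3 stood first at 3913 RPKM, then came Tyrobp at 778, Mpeg1 at 766, Laptm5 at 228, Ptprc at 227, Sirpa at 133, Adgre1 at 125 and Aif1 at 1.24 RPKM. The ranges over the 3 libraries overlapped for Tyrobp and Mpeg1, for Laptm5 and Ptprc, and for Sirpa and Adgre1, so those neighbours in the order were not separated. In BHLHE40-Fl controls the order was Lgals3 at 5325, Tyrobp at 1585, Mpeg1 at 870, Sirpa at 602, Laptm5 at 391, Ptprc at 162, Adgre1 at 86.7 and Aif1 at 1.29 RPKM, with no overlap between neighbours. In Lyz2Cre with LPS it was Lgals3 at 2852, Tyrobp at 936, Mpeg1 at 471, Sirpa at 320, Adgre1 at 316, Ptprc at 268, Laptm5 at 177 and Aif1 at 13.4 RPKM, where Sirpa and Adgre1 alone overlapped. In Lyz2Cre controls it was Lgals3 at 3293, Tyrobp at 1474, Mpeg1 at 676, Sirpa at 565, Adgre1 at 414, Laptm5 at 366, Ptprc at 159 and Aif1 at 25.9 RPKM, with no overlap. Lgals3, Tyrobp and Mpeg1 thus held the first 3 places and Aif1 the last in every group, while Sirpa, Adgre1, Ptprc and Laptm5 changed places. By this measure 7 of the 8 markers of the labelled cell type were abundant in all 4 groups, and Aif1 was near 1 RPKM in both BHLHE40-Fl groups.

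**Figure D1:**
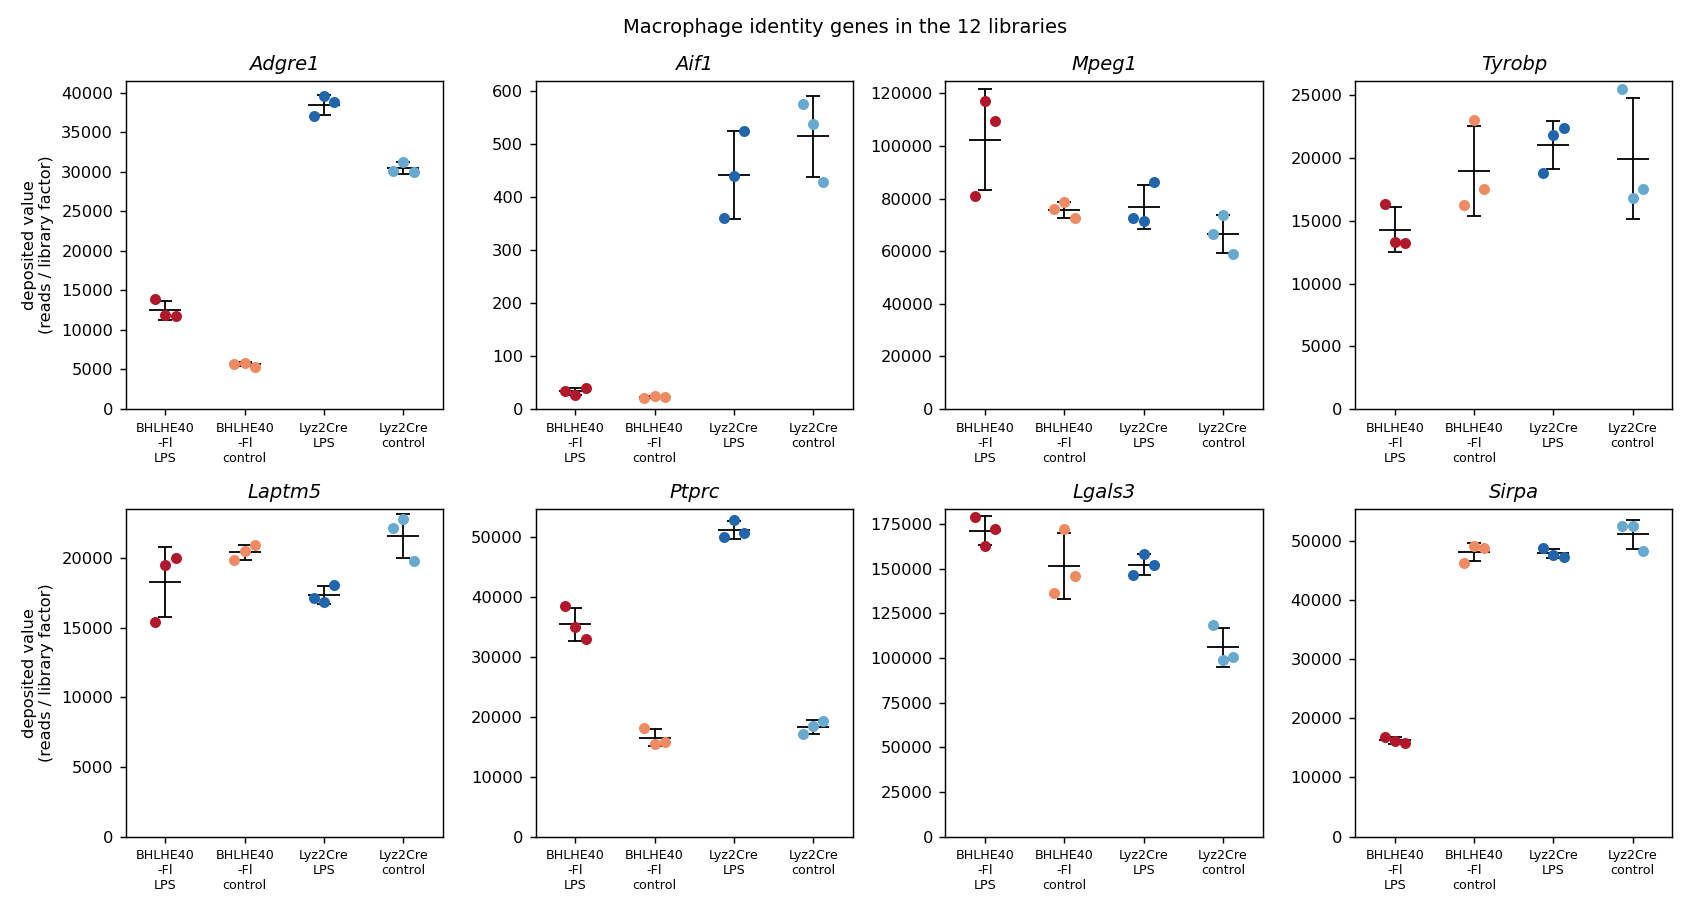
Deposited value (reads divided by 1 factor per library; linear axis from 0) of each of the 8 genes in the 12 libraries, as points by group, with the mean and SD as bars (n = 3 each). Adgre1 and Aif1 were lower in both BHLHE40-Fl groups, and Sirpa in BHLHE40-Fl with LPS alone stood apart, between 15800 and 16895.

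Each gene was compared between genotypes within each treatment, between LPS and control within each genotype, and for a difference between the 2 LPS changes (the interaction), with limma on log2(value + 1) over 20419 genes and Benjamini-Hochberg adjustment, a call being an adjusted p below 0.05. Between BHLHE40-Fl and Lyz2Cre controls, 1 of the 8 was higher and 2 were lower, where 31.6% of all tested genes were called, 15% higher and 16.6% lower. With LPS, 1 was higher and 5 were lower in BHLHE40-Fl, where 37.4% of all genes were called, 17.7% higher and 19.8% lower. LPS against control gave 4 higher and 2 lower in BHLHE40-Fl (50.5% of all genes called, 24.9% higher and 25.6% lower). In Lyz2Cre it gave 3 higher and 1 lower (48.9% of all genes called, 25% higher and 23.9% lower). The LPS change differed between genotypes for 3 of the 8, in the positive direction for 1 and in the negative for 2, against 18.8% of all genes (9.52% and 9.31%). Groups that did not overlap gave a like count, though not always of the same genes. Between controls, 1 of the 8 lay wholly above and 2 wholly below in BHLHE40-Fl, against 20.4% and 20.9% of all tested genes, and with LPS 1 and 5, against 21.4% and 24.6%. The gene wholly above with LPS was Lgals3, which was not called, whereas Mpeg1, called higher there, overlapped. With LPS against control, 4 lay wholly above and 1 below in BHLHE40-Fl (26.7% and 28.9% of all genes), and 3 and 1 in Lyz2Cre (27.5% and 27%). The 5 of 8 lower in BHLHE40-Fl with LPS was the count furthest above its background share. At equal library totals that comparison gave 4 lower and 3 higher, where 8444 of the 20419 genes were called, 73.5% of those calls higher. Under quantile normalization it also gave 4 lower and 3 higher, with 7332 genes called, 53.9% of those calls higher.

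The scale of the deposited values matters for the LPS comparisons. With the libraries set to equal totals, the median log2 change of all tested genes moved to -0.56 for LPS in BHLHE40-Fl (deposited scale -0.05) and to -0.58 for LPS in Lyz2Cre (deposited scale 0). For the genotype difference it moved to 0.17 in controls and to 0.22 with LPS, against 0.00 and -0.02 on the deposited scale. The share of calls that were higher then became 21.5% and 20.1% for LPS in BHLHE40-Fl and in Lyz2Cre, against 49.3% and 51.2%. In the genotype comparisons it became 66.9% in controls and 73.5% with LPS, against 47.5% and 47.2%, and for the interaction 64.1%, or 60.8% with edgeR, against 50.5%. Directions that turned under such a rescaling are named with each gene.

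**Figure D2:**
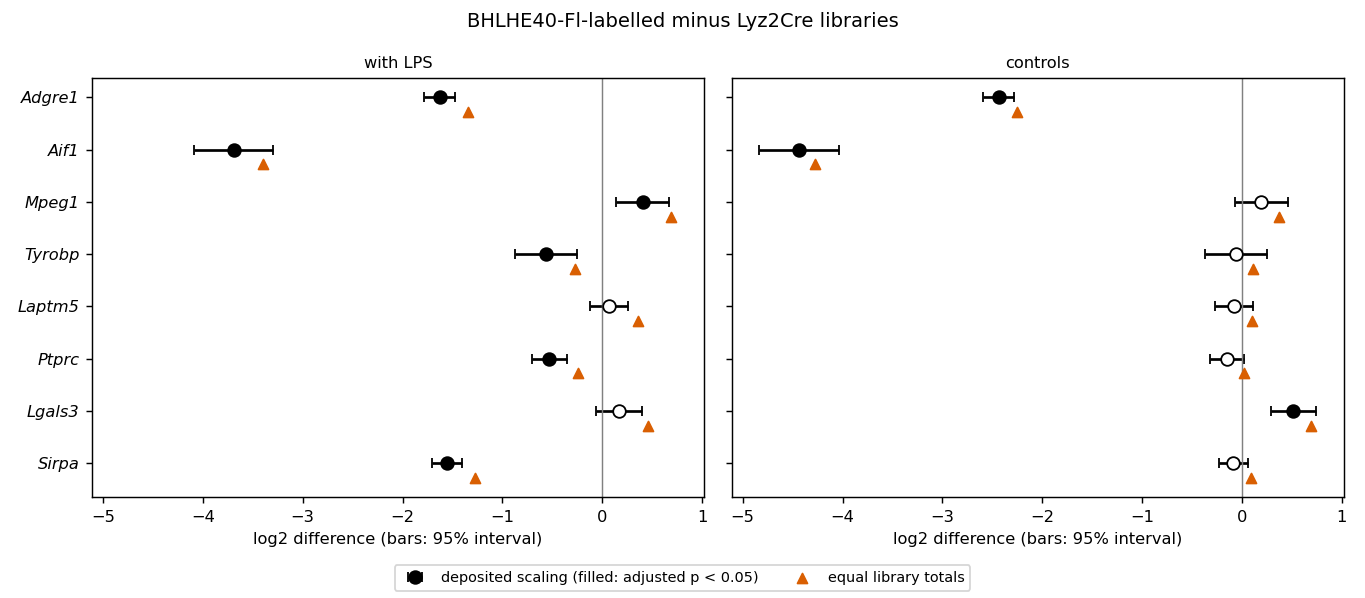
Log2 difference of each gene, BHLHE40-Fl minus Lyz2Cre, with LPS (left) and in controls (right), with its 95% interval; filled points have an adjusted p below 0.05 and triangles give the value at equal library totals. Adgre1 and Aif1 lay far below 0 in both panels at either scale, and Sirpa with LPS alone (-1.56, against -0.09 in controls).

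Adgre1 encodes F4/80, the adhesion G protein-coupled receptor by which mouse macrophages are classically stained. It had 13872, 11833 and 11736 in BHLHE40-Fl with LPS and 5680, 5854 and 5370 in BHLHE40-Fl controls, against 37078, 39565 and 38814 in Lyz2Cre with LPS and 30071, 31292 and 30006 in Lyz2Cre controls. Every BHLHE40-Fl library lay below every Lyz2Cre library, and within each genotype the LPS libraries lay above the controls. Adgre1 was 5.41-fold lower in BHLHE40-Fl than in Lyz2Cre controls (log2 -2.43 ± 0.07 SE, limma adjusted p = 3.31e-14). With LPS it was 3.08-fold lower (log2 -1.63 ± 0.07, limma adjusted p = 1.14e-11). Both calls held under all 24 alternative settings, leaving out each library included. LPS raised it 2.21-fold in BHLHE40-Fl (log2 1.14, limma adjusted p = 2.62e-10) and 1.26-fold in Lyz2Cre (log2 0.34, limma adjusted p = 0.000813). The rise in Lyz2Cre turned to -0.39 at equal library totals and to -0.84 under quantile normalization, both past the threshold, and relative to the median of all genes it was 0.19 and -0.75 under these settings. The LPS change in log2 was 0.81 ± 0.10 larger in BHLHE40-Fl (limma adjusted p = 1.78e-05), a call that held in all 23 alternatives.

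Adhesion receptors other than Adgre1 were called in both directions. Of 19 tested, 8 were higher and 3 lower in BHLHE40-Fl controls, and 6 were higher and 5 lower with LPS. Adgrd1, an adhesion receptor, averaged 169 ± 37.0 in BHLHE40-Fl controls and 9.90 ± 5.88 in Lyz2Cre controls (SD, n = 3 each; log2 difference 4.14). Adgrl2, a latrophilin, went the other way with LPS, at 669 ± 15.1 in BHLHE40-Fl and 1942 ± 165 in Lyz2Cre (log2 difference -1.53). The nearest tested coding gene to Adgre1 is Vav1, 30660 bases away, a signalling protein of blood cells. Vav1 averaged 3047 in BHLHE40-Fl controls and 5001 in Lyz2Cre controls (log2 -0.71, limma adjusted p = 8.39e-08), a smaller difference than that of Adgre1.

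Aif1 encodes IBA1, a calcium-binding protein that bundles actin in ruffles and phagocytic cups. Its values were 33.9, 26.1 and 40.1 in BHLHE40-Fl with LPS and 21.1, 24.5 and 22.5 in BHLHE40-Fl controls, against 359.9, 440 and 525.7 in Lyz2Cre with LPS and 576.6, 538.2 and 429.6 in Lyz2Cre controls. Behind them stood 17 to 32 reads per BHLHE40-Fl library and 259 to 749 per Lyz2Cre library. The genotypes were separated by more than the whole spread within either. Aif1 was 22.7-fold lower in BHLHE40-Fl controls (log2 -4.44 ± 0.19 SE, limma adjusted p = 3.3e-12) and 13.2-fold lower with LPS (log2 -3.69 ± 0.19, limma adjusted p = 6e-11). Both calls held under all 24 alternatives. LPS raised Aif1 1.47-fold in BHLHE40-Fl (log2 0.52, limma adjusted p = 0.0293), and this call fell away without LPS library 1 or 3 or control library 1 or 3 of that genotype, with adjusted p of 0.063, 0.135, 0.076 and 0.0606, while at equal library totals the change was -0.08; it held in 15 of 24 alternatives. In Lyz2Cre the LPS change was -0.23 (95% interval of the fold 0.649 to 1.13, limma adjusted p = 0.359), and it passed at equal totals (-0.95, adjusted p = 0.000284). The difference between the 2 LPS changes was 0.74 (95% interval 0.18 to 1.31, limma adjusted p = 0.0625). It passed at equal totals (adjusted p = 0.0288), under quantile normalization (0.0266), with DESeq2 (0.0406), and without BHLHE40-Fl LPS library 2 (0.0224), Lyz2Cre LPS library 3 (0.0459) or Lyz2Cre control library 3 (0.0392).

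Of 14 relatives of Aif1 and regulators of actin, 1 was higher and 4 lower in BHLHE40-Fl controls, and 4 were higher and 2 lower with LPS; at equal library totals the counts were 5 and 3 in controls, and 9 and 1 with LPS. Aif1l, the paralog of Aif1, went the opposite way, at 20.3 ± 2.15 in BHLHE40-Fl controls and 1.87 ± 0.93 in Lyz2Cre controls (log2 2.95). Coro1a, which encodes the leukocyte actin regulator coronin 1A, averaged 1955 ± 234 in BHLHE40-Fl with LPS and 6297 ± 541 in Lyz2Cre with LPS (log2 -1.69). Tmsb4x, for the actin-sequestering thymosin beta 4, was also lower in controls (20371 ± 2962 in BHLHE40-Fl, 42326 ± 7721 in Lyz2Cre; log2 -1.05). The genes next to Aif1, named here after their values were seen, differed less than Aif1. Lst1, at 9027 bases, averaged 197 in BHLHE40-Fl controls and 400 in Lyz2Cre controls (log2 -1.02, limma adjusted p = 7.11e-06). Beyond it, Tnf, at 23313 bases, averaged 149 and 742 in the same groups (log2 -2.30, limma adjusted p = 9.41e-14). Ltb, at 18371 bases, was low, at 1.5 and 8.87 (log2 -2.02, limma adjusted p = 0.00129). On the other side Prrc2a, at 6094 bases, did not pass the test there (log2 0.15, limma adjusted p = 0.547). Nor did Bag6 (log2 0.04, limma adjusted p = 0.855) or Apom (log2 -0.44, limma adjusted p = 0.695).

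Ptprc encodes CD45, the receptor tyrosine phosphatase of nucleated blood cells, which removes the inhibitory phosphate from Src family kinases. It had 38484, 34914 and 33061 in BHLHE40-Fl with LPS and 18100, 15540 and 15758 in BHLHE40-Fl controls, against 49970, 52839 and 50612 in Lyz2Cre with LPS and 17102, 18468 and 19313 in Lyz2Cre controls. The 2 control groups overlapped, and the 2 LPS groups did not. In controls the log2 difference between genotypes was -0.15 (95% interval of the fold 0.798 to 1.01, limma adjusted p = 0.176), and it turned to 0.02 at equal library totals and 0.05 under quantile normalization. With LPS, Ptprc was 1.44-fold lower in BHLHE40-Fl (log2 -0.53 ± 0.08 SE, limma adjusted p = 4.96e-05), which held under all 24 alternatives. LPS raised it 2.15-fold in BHLHE40-Fl (log2 1.11, limma adjusted p = 1.87e-09) and 2.79-fold in Lyz2Cre (log2 1.48, limma adjusted p = 3.49e-11). The call in BHLHE40-Fl was lost under quantile normalization (log2 0.10, limma adjusted p = 0.313), and the call in Lyz2Cre held under all 24. The smaller LPS change in BHLHE40-Fl (difference -0.38 ± 0.11, limma adjusted p = 0.0288) held in 12 of 23 alternatives. It was lost without BHLHE40-Fl LPS library 2 or 3, with adjusted p of 0.0638 and 0.0854, and without BHLHE40-Fl control library 1, with 0.0781. It was also lost without Lyz2Cre LPS library 2 or 3, with 0.0736 and 0.0552, and without Lyz2Cre control library 1, with 0.0787. Other losses were at equal totals (0.102), under quantile normalization (0.083), with no filter (0.122), with a replicate block (0.0533) and with edgeR (0.0581). A130071D04Rik, which overlaps Ptprc on the same strand, had 0.313% to 0.76% of its level.

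Among 14 other receptor tyrosine phosphatases, 6 were higher and 4 lower in BHLHE40-Fl, both in controls and with LPS. Those with the widest gap are known mainly from epithelial and neural cells. Ptprf averaged 565 ± 72.4 in BHLHE40-Fl controls and 25.3 ± 6.18 in Lyz2Cre controls (log2 4.45), and Ptprd 187 ± 28.8 and 4.83 ± 4.22 in the same groups (log2 5.23). Markers of non-haematopoietic cells that moved with the genotype are given further on.

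Tyrobp encodes DAP12, the membrane adaptor whose ITAM recruits Syk for receptors such as TREM2. Its values were 16376, 13291 and 13243 in BHLHE40-Fl with LPS and 16283, 23047 and 17578 in BHLHE40-Fl controls, against 18841, 21840 and 22434 in Lyz2Cre with LPS and 25499, 16829 and 17530 in Lyz2Cre controls. The control groups overlapped and each held 1 high library, whereas with LPS every BHLHE40-Fl library lay below every Lyz2Cre library. In controls the log2 difference was -0.06 (95% interval of the fold 0.772 to 1.19, limma adjusted p = 0.802), with a sign that turned at equal totals (0.11), under quantile normalization (0.09), and without library 1 of the Lyz2Cre (0.13) or the BHLHE40-Fl controls (0.04). With LPS, Tyrobp was 1.47-fold lower in BHLHE40-Fl (log2 -0.56 ± 0.15 SE, limma adjusted p = 0.0056). That call held in 21 of 24 alternatives and was lost at equal library totals (adjusted p = 0.163), under quantile normalization (0.29) and with no filter on low values (0.118). LPS lowered Tyrobp 1.33-fold in BHLHE40-Fl (log2 -0.40, limma adjusted p = 0.0314), lost without LPS library 2 or 3 (adjusted p = 0.106 and 0.109) or control library 2 (value -0.25, adjusted p = 0.188). It was also lost with no filter (adjusted p = 0.282), with robust variances (0.116), in the compared groups alone (0.0771) and with DESeq2 (0.0759), and was -1.02 at equal totals (adjusted p = 1.08e-05). In Lyz2Cre the change was 0.10 (95% interval of the fold 0.864 to 1.33, limma adjusted p = 0.625), which turned to -0.63 at equal totals (adjusted p = 0.00129). The difference of the 2 LPS changes was -0.50 (limma adjusted p = 0.114), and it passed the threshold without Lyz2Cre control library 1 (adjusted p = 0.0131).

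Receptors that pair with DAP12 were more often lower in BHLHE40-Fl. Of 16 tested genes for these receptors and related adaptors, 2 were higher and 10 lower in controls (median log2 -2.04), and 0 were higher and 13 lower with LPS (median -1.64). Pilrb1, an activating paired immunoglobulin-like receptor, averaged 3.77 ± 1.66 in BHLHE40-Fl controls and 403 ± 5.78 in Lyz2Cre controls (log2 -6.47). With LPS, Sirpb1a averaged 23.5 ± 1.18 in BHLHE40-Fl and 369.9 ± 46.6 in Lyz2Cre (log2 -3.91), and Sirpb1c 30.2 ± 13.1 and 488 ± 61.5 in the same groups (log2 -4.07). The Pilrb genes and the Sirpb1 genes are close copies of each other, so their reads may be split between copies and single values are uncertain. Hcst, which encodes the related adaptor DAP10 and lies 127 bases from Tyrobp, followed Tyrobp in both comparisons, at 275 in BHLHE40-Fl and 503 in Lyz2Cre with LPS (log2 -0.87, limma adjusted p = 0.000287), with no call in controls (adjusted p = 0.652). Trem1, a receptor amplifying inflammatory signals, averaged 0.267 in BHLHE40-Fl controls and 48.9 in Lyz2Cre controls, and 0.4 and 73.9 in the same genotypes with LPS.

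Of 16 Src, Syk and downstream genes, 2 were higher and 9 lower in BHLHE40-Fl controls, and 4 higher and 8 lower with LPS, the last turning to 7 higher and 3 lower at equal library totals. Fgr, a Src family kinase of myeloid cells, averaged 176 ± 17.0 in BHLHE40-Fl controls and 1533 ± 84.0 in Lyz2Cre controls (log2 -3.12). With LPS, Lyn averaged 10773 ± 27.7 in BHLHE40-Fl and 16482 ± 994 in Lyz2Cre (log2 -0.61), and Pik3cd, a catalytic subunit of phosphoinositide 3-kinase, 7659 ± 358 and 5021 ± 41.9 in the same groups (log2 0.61).

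Sirpa encodes SIRPα, the receptor that binds CD47 on other cells and restrains phagocytosis through the phosphatases SHP-1 and SHP-2. It had 16895, 16103 and 15800 in BHLHE40-Fl with LPS and 46293, 49136 and 48769 in BHLHE40-Fl controls, against 48799, 47546 and 47222 in Lyz2Cre with LPS and 52453, 52518 and 48225 in Lyz2Cre controls. On the deposited scale the BHLHE40-Fl LPS libraries lay below the other 9 without overlap. LPS lowered Sirpa 2.96-fold in BHLHE40-Fl (log2 -1.56 ± 0.07 SE, limma adjusted p = 1.47e-12). In Lyz2Cre the change was -0.09 (95% interval of the fold 0.847 to 1.04, limma adjusted p = 0.303); at equal library totals it was -0.82 (limma adjusted p = 1.25e-08), or -0.24 relative to the median of all genes, under quantile normalization -1.15 (limma adjusted p = 3.4e-09), or -1.07 relative to that median, and with edgeR -0.21 (adjusted p = 0.0253). The LPS change differed between genotypes by -1.47 ± 0.10 (limma adjusted p = 9.25e-09), which held in all 23 alternatives. With LPS, Sirpa was 2.94-fold lower in BHLHE40-Fl than in Lyz2Cre (log2 -1.56 ± 0.07, limma adjusted p = 1.07e-11), held in all 24. In controls the difference was -0.09 (95% interval of the fold 0.85 to 1.04, limma adjusted p = 0.399), turning to 0.09 at equal totals and 0.21 under quantile normalization. Sirpa shares sequence with the Sirpb1 genes, whose summed level was far below it.

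The ligand of SIRPα changed in both genotypes alike in direction. Cd47 averaged 11580 ± 354 in BHLHE40-Fl with LPS and 2332 ± 103 in BHLHE40-Fl controls (4.97-fold, log2 2.31, limma adjusted p = 3.97e-15), and 13233 ± 533 in Lyz2Cre with LPS and 3366 ± 247 in Lyz2Cre controls (3.93-fold, log2 1.98, limma adjusted p = 5.28e-14). Of the 8 tested genes for ligands and effectors, 0 were higher and 5 lower in BHLHE40-Fl controls, and 0 higher and 6 lower with LPS. At equal library totals these counts were 3 and 4 in controls, and 1 and 2 with LPS. Ptpn6, which encodes SHP-1, averaged 11886 ± 432 in BHLHE40-Fl with LPS and 15532 ± 229 in Lyz2Cre with LPS (log2 -0.39). Thbs1, for thrombospondin 1, another CD47 ligand, had 10024 ± 857 and 53613 ± 4328 in the same groups (log2 -2.42), and 1536 ± 168 and 27412 ± 4058 in BHLHE40-Fl and Lyz2Cre controls (log2 -4.15).

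**Figure D3:**
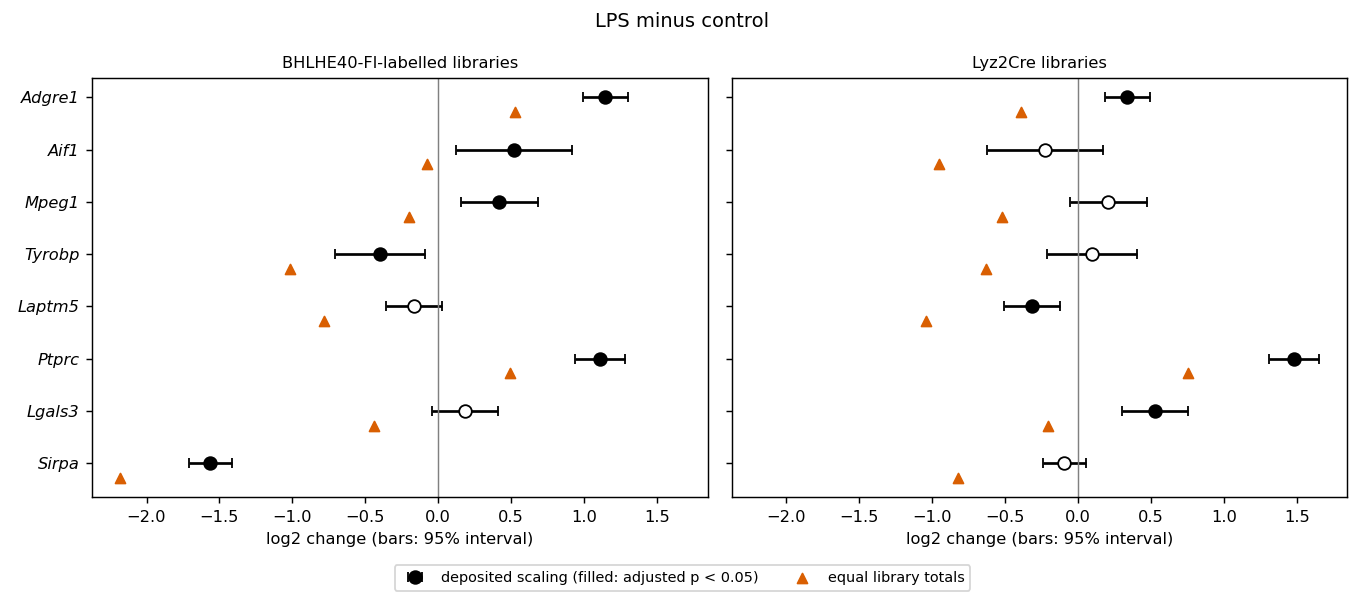
Log2 change of each gene, LPS minus control, in BHLHE40-Fl (left) and Lyz2Cre (right), with its 95% interval; filled points have an adjusted p below 0.05 and triangles give the value at equal library totals. Ptprc rose in both panels at either scale, while Sirpa fell by 1.56 in BHLHE40-Fl and lay at -0.09 in Lyz2Cre.

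Mpeg1 encodes perforin-2, a pore-forming protein of the phagosome and endosome membrane. Its values were 80795, 116964 and 109546 in BHLHE40-Fl with LPS and 75918, 78532 and 72547 in BHLHE40-Fl controls, against 72611, 71460 and 86291 in Lyz2Cre with LPS and 66679, 73681 and 59009 in Lyz2Cre controls. One BHLHE40-Fl LPS library lay within the Lyz2Cre LPS range and the other two above it, and the control groups overlapped. With LPS, Mpeg1 was 1.33-fold higher in BHLHE40-Fl (log2 0.40 ± 0.13 SE, limma adjusted p = 0.0174). That call was lost without BHLHE40-Fl LPS library 2 or 3 (adjusted p = 0.107 and 0.0803) or Lyz2Cre LPS library 1 or 2 (0.0682 and 0.0759), with no filter (0.158) and in the compared groups alone (0.107), and held in 18 of 24 alternatives. In controls the difference was 0.19 (95% interval of the fold 0.95 to 1.37, limma adjusted p = 0.288), and it passed the threshold at equal library totals (0.37, adjusted p = 0.0228) and under quantile normalization (0.52, adjusted p = 0.00257). LPS raised Mpeg1 1.35-fold in BHLHE40-Fl (log2 0.42, limma adjusted p = 0.00981). That change turned to -0.20 at equal totals and to -0.53 under quantile normalization, the latter past the threshold (limma adjusted p = 0.00143). Relative to the median of all genes it was 0.36 and -0.42 under these settings. The call was also lost without LPS library 2 (adjusted p = 0.0676), with no filter (0.103) and in the compared groups alone (0.0606). In Lyz2Cre the LPS change was 0.21 (95% interval of the fold 0.961 to 1.39, limma adjusted p = 0.192), turning to -0.52 at equal totals (adjusted p = 0.00115). The interaction was 0.21 (limma adjusted p = 0.489). Of 3 other tested genes with the same pore-forming fold, 0 were higher and 1 lower in BHLHE40-Fl controls, and 0 higher and 2 lower with LPS. These calls rest on low values, since all 7 such genes listed summed to at most 43.7 in any library.

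Laptm5 encodes a lysosomal transmembrane protein of blood cells, known for directing immune receptors to degradation. It was called in neither genotype comparison on the deposited scale, with 15412, 19507 and 20003 in BHLHE40-Fl with LPS and 19841, 20516 and 20912 in BHLHE40-Fl controls, against 17115, 16815 and 18085 in Lyz2Cre with LPS and 22185, 22776 and 19826 in Lyz2Cre controls. The genotypes overlapped under both treatments. The log2 difference was 0.07 with LPS (95% interval of the fold 0.92 to 1.2, limma adjusted p = 0.601) and -0.08 in controls (0.831 to 1.08, limma adjusted p = 0.578), which turned to 0.10 at equal totals. At equal totals the difference with LPS was 0.36 and passed the threshold (limma adjusted p = 0.00335), as it did under quantile normalization (0.36, adjusted p = 0.00328). LPS lowered Laptm5 1.25-fold in Lyz2Cre (log2 -0.31, limma adjusted p = 0.00707), without overlap between the groups, in 23 of 24 alternatives. In BHLHE40-Fl the change was -0.17 (95% interval of the fold 0.781 to 1.02, limma adjusted p = 0.136), and it passed at equal totals (-0.79, adjusted p = 4.69e-07) and under quantile normalization (-1.11, adjusted p = 7.33e-09). The 2 changes did not differ past the threshold (difference 0.15, limma adjusted p = 0.498). Among 11 lysosomal membrane genes including its relatives, 2 were higher and 2 lower in BHLHE40-Fl controls, and 2 higher and 4 lower with LPS (5 and 1 at equal totals). Npc1, the lysosomal cholesterol transporter, averaged 5542 ± 355 in BHLHE40-Fl with LPS and 8822 ± 155 in Lyz2Cre with LPS (log2 -0.67), and Laptm4b, a relative of Laptm5, 528 ± 36.4 in BHLHE40-Fl controls and 319 ± 9.50 in Lyz2Cre controls (log2 0.73).

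Lgals3 encodes galectin-3, a lectin that binds β-galactosides and is long known as the macrophage antigen Mac-2. Its values were 178687, 162467 and 172136 in BHLHE40-Fl with LPS and 136368, 172218 and 145975 in BHLHE40-Fl controls, against 146170, 158310 and 152207 in Lyz2Cre with LPS and 118673, 98793 and 100537 in Lyz2Cre controls. Lyz2Cre controls lay below all 9 other libraries. Lgals3 was 1.43-fold higher in BHLHE40-Fl controls (log2 0.51 ± 0.11 SE, limma adjusted p = 0.00107), which held under all 24 alternatives and makes it the only one of the 8 called higher there. With LPS the groups did not overlap either, but the difference of 0.17 did not pass the test (95% interval of the fold 0.96 to 1.31, limma adjusted p = 0.247), except at equal library totals (0.45, limma adjusted p = 0.00213) and under quantile normalization (0.91, limma adjusted p = 6.65e-06). LPS raised it 1.44-fold in Lyz2Cre (log2 0.53, limma adjusted p = 0.000465), turning to -0.20 at equal totals and -0.55 under quantile normalization, or 0.38 and -0.46 relative to the median of all genes. In BHLHE40-Fl the change was 0.18 (95% interval of the fold 0.969 to 1.33, limma adjusted p = 0.178), turning to -0.44 and -0.58 under the same settings, both past the threshold. The interaction was -0.35 (limma adjusted p = 0.135), passing with robust variances and with DESeq2 (adjusted p = 0.0383 in each).

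The galectin ligand and a relative moved against Lgals3 in controls. Of 7 tested galectins and ligand, 3 were higher and 2 lower in BHLHE40-Fl controls, and 2 higher and 2 lower with LPS. Lgals3bp, for a secreted glycoprotein that binds galectin-3, averaged 2259 ± 106 in BHLHE40-Fl controls and 25516 ± 7558 in Lyz2Cre controls (11.3-fold lower, log2 -3.45), and 22568 ± 622 and 44524 ± 4974 in the same genotypes with LPS (log2 -0.97). Lgals9, for galectin-9, was lower in BHLHE40-Fl controls (337 ± 37.9 in BHLHE40-Fl, 2262 ± 726 in Lyz2Cre; log2 -2.69) and higher with LPS (10618 ± 523 in BHLHE40-Fl, 6854 ± 477 in Lyz2Cre; log2 0.63). Lgals1, for galectin-1, averaged 17959 ± 719 in BHLHE40-Fl controls and 15428 ± 1079 in Lyz2Cre controls (log2 0.22).

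A ratio of 2 genes in the same library does not depend on the library factor, and Ptprc, as the pan-leukocyte gene of the 8, was taken as the denominator. It shows unequal change and not which of the 2 genes changed. Adgre1 over Ptprc was 0.352 (range 0.339 to 0.361) in BHLHE40-Fl with LPS and 0.344 (0.314 to 0.377) in BHLHE40-Fl controls, against 0.753 (0.742 to 0.767) in Lyz2Cre with LPS and 1.67 (1.55 to 1.76) in Lyz2Cre controls. The ratio overlapped between LPS and control in BHLHE40-Fl, where both genes rose, and was lower with LPS in Lyz2Cre. Sirpa over Ptprc was 0.459 (0.439 to 0.478) in BHLHE40-Fl with LPS and 2.94 (2.56 to 3.16) in BHLHE40-Fl controls, against 0.937 (0.900 to 0.977) in Lyz2Cre with LPS and 2.80 (2.50 to 3.07) in Lyz2Cre controls. Tyrobp over Ptprc overlapped between genotypes, at 0.402 in BHLHE40-Fl and 0.411 in Lyz2Cre with LPS, and at 1.17 and 1.10 in the same genotypes without it. Lgals3 over Ptprc was higher in BHLHE40-Fl without overlap, at 4.83 in BHLHE40-Fl and 2.98 in Lyz2Cre with LPS, and at 9.29 and 5.83 in the same genotypes in controls. Aif1 over Ptprc was lowest in BHLHE40-Fl, at 0.000947 with LPS and 0.00139 in controls, against 0.00864 in Lyz2Cre with LPS and 0.0284 in Lyz2Cre controls. All 7 ratios were lower with LPS than in controls within Lyz2Cre.

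**Figure D4:**
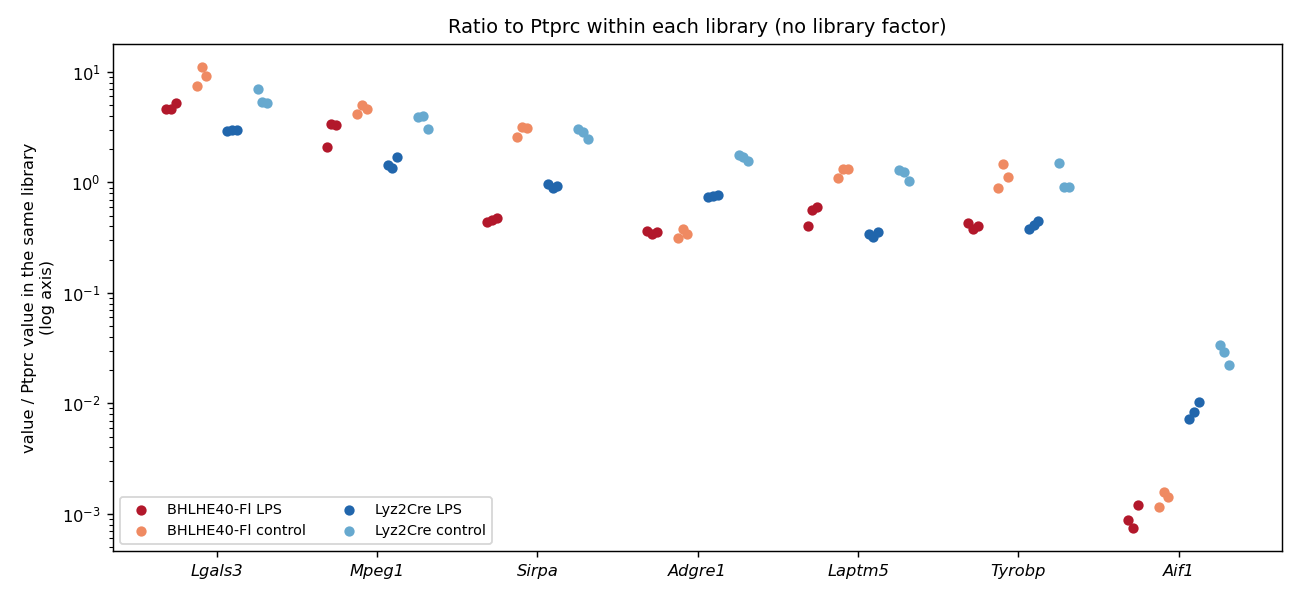
Value of each gene over that of Ptprc in the same library, on a log axis, for the 12 libraries by group. Points of the BHLHE40-Fl and Lyz2Cre groups were apart for Adgre1 and Aif1, close for Tyrobp, and within BHLHE40-Fl the LPS and control points overlapped for Adgre1.

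The 8 genes spanned the range of a wider list of 20 other macrophage genes. In controls, 1 of the 20 was higher and 16 were lower in BHLHE40-Fl (median log2 -1.04, against 0.00 over all tested genes). With LPS 0 were higher and 17 lower (median -0.97, against -0.02). At equal library totals the counts were 3 and 16 in controls, and 1 and 14 with LPS. C1qa, a chain of complement C1q made by macrophages, averaged 1048 ± 57.3 in BHLHE40-Fl controls and 11102 ± 1289 in Lyz2Cre controls (log2 -3.40). Itgam, for the integrin CD11b, averaged 1179 ± 84.9 and 9696 ± 234 in the same groups (log2 -3.04), Fcgr1, for the high-affinity IgG receptor, 637 ± 96.6 and 4862 ± 1528 (log2 -2.89), and Cd14, the LPS co-receptor, 1431 ± 149 and 8294 ± 655 (log2 -2.54). With LPS, C1qa averaged 1049 ± 82.5 in BHLHE40-Fl and 12307 ± 1324 in Lyz2Cre (log2 -3.55). In controls Adgre1 lay among these genes by the size of its difference, and Aif1 lay below all 20. Ptprc, Sirpa, Laptm5, Tyrobp and Mpeg1 lay near 0 in controls. Lyz2 itself, whose locus drives the Cre, averaged 769 ± 67.9 in BHLHE40-Fl with LPS, 170.2 ± 31.5 in BHLHE40-Fl controls, 969.9 ± 56.2 in Lyz2Cre with LPS and 765.8 ± 69.8 in Lyz2Cre controls.

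**Figure D5:**
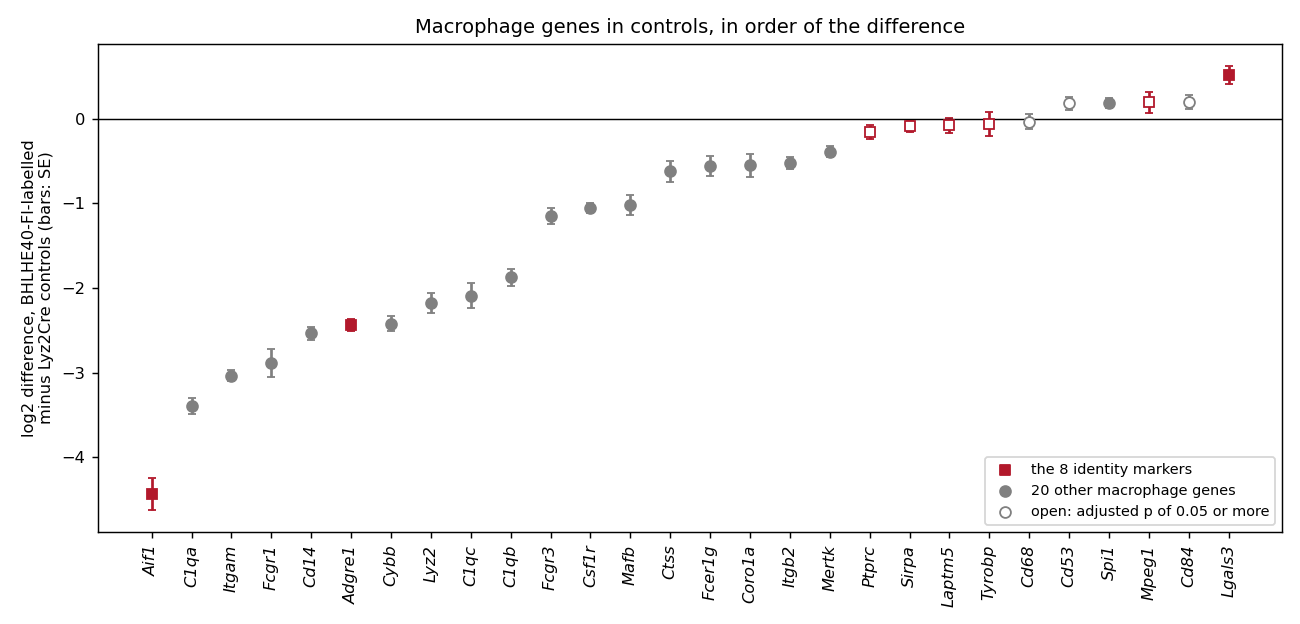
Log2 difference, BHLHE40-Fl minus Lyz2Cre controls, of the 8 genes (squares) and 20 other macrophage genes (circles) in order of size, with the SE as bars and open symbols for an adjusted p of 0.05 or more. The 8 genes span the whole range, with Aif1 at -4.44 and Lgals3 at 0.51 at its ends.

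The genes whose values across the 12 libraries ran most like those of each marker were found among 9395 genes by the root mean square difference of mean-centred log2 values. For Adgre1 they were Cd74 (0.176), H2-Eb1 (0.177) and H2-Aa (0.188), all genes of MHC class II. Cd74, the invariant chain, averaged 4332 in BHLHE40-Fl with LPS, 2051 in BHLHE40-Fl controls, 13240 in Lyz2Cre with LPS and 8457 in Lyz2Cre controls. For Aif1 they were Slc39a4 (0.280), Bst1 (0.371) and C1qa (0.397), and for Sirpa Srxn1 (0.117), Stra6l (0.127) and Galnt6 (0.144). Srxn1, for the antioxidant sulfiredoxin, averaged 728 in BHLHE40-Fl with LPS, 2509 in BHLHE40-Fl controls, 2425 in Lyz2Cre with LPS and 2474 in Lyz2Cre controls, low in the same 3 libraries as Sirpa. The closest for Tyrobp was Cd300c2 (0.115), a receptor of the DAP12 list, for Lgals3 Sun2 (0.0725), for Mpeg1 Rbm15 (0.0960) and for Laptm5 Trrap (0.0533).

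Markers of other macrophage states and cell types moved with the genotype too. Of 13 genes of small peritoneal macrophages and monocytes, 1 was higher and 8 were lower in BHLHE40-Fl, both in controls and with LPS. Their summed level was 30392 to 32811 in BHLHE40-Fl with LPS and 19749 to 22716 in BHLHE40-Fl controls, against 66722 to 73712 in Lyz2Cre with LPS and 53708 to 68444 in Lyz2Cre controls. Fn1, named after its values were seen, was the largest part of the sum in every group. It averaged 13483 in BHLHE40-Fl with LPS, 12280 in BHLHE40-Fl controls, 33001 in Lyz2Cre with LPS and 39621 in Lyz2Cre controls. Ly6c2, a monocyte antigen, averaged 0.5 in BHLHE40-Fl controls and 1217 in Lyz2Cre controls, and Cx3cr1, the fractalkine receptor, 24.7 ± 3.95 and 928 ± 124 in the same groups (log2 -5.18). Mrc1 of that list, also named after its values were seen, went the other way, at 4437 in BHLHE40-Fl and 2483 in Lyz2Cre controls. With LPS Mrc1 averaged 3727 in BHLHE40-Fl and 2034 in Lyz2Cre. Of 16 genes of large resident macrophages, 5 were higher and 6 lower in controls, and 6 and 6 with LPS. Gata6, the transcription factor of resident peritoneal macrophages, averaged 333 ± 39.9 in BHLHE40-Fl controls and 24.7 ± 9.06 in Lyz2Cre controls (log2 3.76). Prg4, another gene of that list, went the other way, at 1.73 and 43.7 in the same groups. Most mesothelial and stromal markers, given next, were also higher in BHLHE40-Fl, and which cells held the Gata6 RNA was not tested.

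Of 21 mesothelial and stromal markers, 20 were higher and 1 lower in BHLHE40-Fl controls, and 19 higher and 1 lower with LPS. Upk3b, a uroplakin that marks mesothelium, averaged 444 ± 119 in BHLHE40-Fl with LPS and 629 ± 153 in BHLHE40-Fl controls, and was at 0 in all 6 Lyz2Cre libraries. At 0 in whole groups were also Upk1b, Krt7, Krt8 and Muc16 in Lyz2Cre with LPS, and Msln and Krt18 in Lyz2Cre controls, with none of the 21 at 0 in a BHLHE40-Fl group. The summed level of the list was 39788 to 41429 in BHLHE40-Fl with LPS and 18016 to 20530 in BHLHE40-Fl controls, against 44164 to 45746 in Lyz2Cre with LPS and 14457 to 16446 in Lyz2Cre controls. That is 0.127% to 0.136% of reads in BHLHE40-Fl with LPS, 0.0884% to 0.103% in BHLHE40-Fl controls, 0.116% to 0.12% in Lyz2Cre with LPS and 0.064% to 0.0725% in Lyz2Cre controls. Pdpn, named after its values were seen, made up most of the sum in the other 3 groups but not in BHLHE40-Fl controls, at 25829 in BHLHE40-Fl with LPS, 5146 in BHLHE40-Fl controls, 40898 in Lyz2Cre with LPS and 13258 in Lyz2Cre controls.

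Lymphocyte markers that were called were mostly lower in BHLHE40-Fl. Of 10 T cell markers, 1 was higher and 7 lower in BHLHE40-Fl in both comparisons. Their sum was 11762 to 12330 in BHLHE40-Fl with LPS and 28731 to 35760 in BHLHE40-Fl controls, against 10520 to 10869 in Lyz2Cre with LPS and 10352 to 12179 in Lyz2Cre controls, mostly Il7r in controls (31510 in BHLHE40-Fl, 11278 in Lyz2Cre), with Cd3e at 0 in both BHLHE40-Fl groups. Of 7 tested neutrophil markers, 3 were higher and 4 lower in controls and 1 higher and 4 lower with LPS; the sum was 4239 to 4752 in BHLHE40-Fl with LPS and 1818 to 1930 in BHLHE40-Fl controls, against 17566 to 17774 in Lyz2Cre with LPS and 24694 to 28844 in Lyz2Cre controls. Mmp8 averaged 366 in BHLHE40-Fl controls and 24800 in Lyz2Cre controls, where it was most of the sum, while the defining marker Ly6g was at 0 in all 4 groups. Of 9 tested B cell markers, 0 were higher and 1 lower in controls, and 0 and 3 with LPS, with sums of at most 119.5 in any library. Of 5 tested NK cell markers, 0 were higher and 3 lower in controls, and 0 and 4 with LPS, with sums of at most 37.3. Of 7 tested dendritic cell markers, 3 were higher and 3 lower in both comparisons, with sums of 10592 to 11363 in BHLHE40-Fl with LPS and 11642 to 13076 in BHLHE40-Fl controls, against 6135 to 6595 in Lyz2Cre with LPS and 5682 to 5976 in Lyz2Cre controls. The part of these markers in the differences of the 8 genes was not tested.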

How the data were processed

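RNA sequencing libraries of mouse peritoneal macrophages were grouped by the genotype and treatment in their labels, 3 per group. STAR, Cufflinks and Cuffdiff and the mm10 build are named in the submitters' processing notes, without versions. No source used here names the read counter, its strand setting or its annotation. The authors deposited 1 table of gene-level signal, in which each value is a whole number of reads divided by 1 factor per library. This was tested on the file: dividing by the value of 1 read (0.725 to 1.56) gave whole reads, within 0.06, for 99.98% to 100% of the nonzero values. Nothing in the files records how the factors were set.

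From these values, log2(value + 1) was tested with limma 3.58.1 (trend) in R 4.3.3, with 1 mean per group over 12 libraries, keeping genes that reached 1 in 3 or more libraries, with Benjamini-Hochberg adjustment over 20419 genes. Fold changes are ratios of group means, whereas log2 differences carry the added 1, so changes of low genes are understated. The recovered counts of reads were tested with edgeR 4.0.16 and DESeq2 1.42.0 as alternatives, since the deposited table holds no counts as such. Other alternatives were pseudocounts of 0.1 and 5, other filters, equal library totals, median-of-ratios factors, quantile normalization, robust variances, the compared groups alone, a replicate block and leaving out each library. Of these steps, the limma fit alone was tested on simulated data, with the scatter set in advance. There 2.07% to 7.77% of calls were false, the most for LPS in BHLHE40-Fl, above the threshold of 5%. Changes of 2-fold were called for 89% to 92% of changed genes between groups, but for 54% in the interaction.

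The genes described were the 8 markers in every comparison, up to 4 called genes per list with the largest difference and a mean of at least 20, and the 3 most alike genes per marker; other genes are said to be named after their values were seen, and some eligible genes are not reported here. The 8 markers, the lists and the tests were chosen with earlier results of these data known. Of 53465 identifiers, 53274 were in GENCODE M21. Promoters came from RefSeq; those of Adgre1, Tyrobp and Sirpa were not used here. The depth gives each marker at least 17 reads in every library, with Aif1 the lowest.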

Additional observations from a re-analysis of the deposited data

Results flagged for a closer look

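The LPS change, LPS minus control, differed between BHLHE40-Fl and Lyz2Cre for 3 of the 8 genes by the limma interaction test, against 18.8% of all tested genes. For Adgre1 the difference of the changes was 0.8064 on the log2 scale (limma adjusted p = 1.78e-05), with a rise of 1.14 in BHLHE40-Fl and of 0.34 in Lyz2Cre. For Sirpa it was -1.4705 (limma adjusted p = 9.25e-09), with a change of -1.56 in BHLHE40-Fl and -0.09 in Lyz2Cre. For Ptprc it was -0.3761 (limma adjusted p = 0.0288), with a rise of 1.11 in BHLHE40-Fl and of 1.48 in Lyz2Cre, and this call depended on 6 of the 12 libraries one at a time. With 3 libraries per group, no group was large enough for a test of single outlying libraries.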

How the results depend on the processing

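Of 952 recomputed values for the 8 genes, 866 kept their direction and their side of the threshold, 40 lost a call, 21 gained one and 25 changed sign. The calls of Adgre1 and Aif1 between genotypes in both treatments, of Lgals3 between controls, of Ptprc and Sirpa between genotypes with LPS, of Adgre1 and Sirpa for LPS in BHLHE40-Fl and for the interaction, and of Ptprc for LPS in Lyz2Cre held in every alternative run.

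With no filter on low values, LPS in BHLHE40-Fl gave 2 markers higher and 1 lower, LPS in Lyz2Cre 0 lower, the genotype difference with LPS 0 higher, and the interaction 1 lower among 2551 genes called. At equal totals, LPS in BHLHE40-Fl gave 2 higher and 4 lower, where 12175 genes were called, 21.5% of them higher. LPS in Lyz2Cre gave 1 and 6, where 11893 genes were called, 20.1% of them higher. The genotype difference gave 2 higher in controls (7625 genes called, 66.9% higher) and 3 with LPS (8444 genes, 73.5% higher). The interaction gave 2 higher and 1 lower (4019 genes, 64.1% higher). Under quantile normalization the same counts held except 5 lower for LPS in BHLHE40-Fl. In the order above, the share of calls that were higher was then 42.2%, 43.4%, 56.7%, 53.9% and 49.2%. For LPS in BHLHE40-Fl, robust variances and DESeq2 gave 1 lower each, and the compared groups alone 2 higher and 1 lower, with 0 higher for the genotype difference with LPS. edgeR gave 2 lower for LPS in Lyz2Cre and 1 lower for the interaction, and DESeq2 2 higher for the interaction. The cause was not tested.

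Signs turned at equal totals for LPS in BHLHE40-Fl (Aif1 -0.0794, Mpeg1 -0.20, Lgals3 -0.44), LPS in Lyz2Cre (Adgre1 -0.39, Mpeg1 -0.52, Tyrobp -0.63, Lgals3 -0.20) and between controls (Tyrobp 0.11, Laptm5 0.10, Ptprc 0.0235, Sirpa 0.0904). Under quantile normalization they turned for LPS in BHLHE40-Fl (Mpeg1 -0.53, Lgals3 -0.58), LPS in Lyz2Cre (Adgre1 -0.84, Mpeg1 -0.80, Tyrobp -1.02, Lgals3 -0.55) and between controls (Tyrobp 0.0884, Laptm5 0.087, Ptprc 0.0517, Sirpa 0.21). Relative to the median of all genes at equal totals, LPS in BHLHE40-Fl gave Aif1 0.48, Mpeg1 0.36 and Lgals3 0.12. By the same measure, LPS in Lyz2Cre gave Adgre1 0.19, Mpeg1 0.06, Tyrobp -0.05 and Lgals3 0.38. The genotype difference between controls was then -0.05 for Tyrobp, -0.07 for Laptm5, -0.145 for Ptprc and -0.08 for Sirpa. With edgeR Tyrobp for LPS in Lyz2Cre was -0.0476, and with 1 library left out Tyrobp ranged across 0 between controls (-0.212 to 0.127) and for LPS in Lyz2Cre (-0.0113 to 0.288).

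Leaving out each library in turn gave 9405 to 10469 genes called for LPS in BHLHE40-Fl, 9299 to 10100 for LPS in Lyz2Cre, 5517 to 6663 between controls, 6656 to 7887 between genotypes with LPS and 3228 to 4031 for the interaction. Markers called higher ranged from 3 to 4 for LPS in BHLHE40-Fl, 0 to 1 between genotypes with LPS and 1 to 2 for the interaction, and markers called lower from 1 to 2 for LPS in BHLHE40-Fl and for the interaction. Libraries with the same replicate number did not deviate together (18 pairs, r from -0.07 to 0.03, 0 of 12 libraries closest to their own number), so the numbers were not taken as pairs. A replicate block gave 10083, 9815, 6121, 7367 and 3528 genes called in the 5 comparisons, against 10320, 9977, 6445, 7643 and 3846 without it, and 1 marker lower for the interaction, Ptprc then having an adjusted p of 0.0533. Aif1, with 17 to 32 reads per BHLHE40-Fl library, is the marker whose precision depth limits.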
